A study of Schmidtea mediterranea with 18 samples.

Results

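The transcripts of 3 genes, *dynamin 1-like* (*DYN1*), *septin 4* (*Sept4*) and *CDC42*, were followed in planarians in which *hippo* had been silenced by RNA interference (RNAi). The 3 are grouped here under cytokinesis and membrane, though the functions given for them below differ. The members were taken from the study's list of cell cycle genes, which pairs codes of the dd_Smed_v6 transcriptome assembly with gene names by homology. They are dd_Smed_v6_1074_0_1 for *DYN1*, dd_Smed_v6_4007_0_1 for *Sept4* and dd_Smed_v6_698_0_1 for *CDC42*, 3 of the 41745 transcripts in the table. Libraries were made from whole animals of the asexual BCN-10 clonal line of *Schmidtea mediterranea*, so all samples share 1 genotype. *hippo (RNAi)* animals received double-stranded RNA for *Smed-hippo*, and controls, written *gfp (RNAi)* in the labels, received that of *gfp*, a jellyfish gene with no target in these animals. Both had gone without food for at least 1 week before the first injection. They stayed unfed and were sampled at 1, 3 and 4 weeks of inhibition. The paper describes rounds of injection on 3 days in a row, repeated weekly over 3 weeks. Time without food and rounds of injection thus rose together between the 1-week and 3-week groups. Each of the 6 groups held 3 libraries, each from a pool of 5 animals, which gives 18 libraries in all. No source used here states the age of the animals or how often they were injected before the 4-week sampling.

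Cytokinesis is the last step of cell division, in which a ring of actin and myosin pinches the cell into daughters and new membrane closes the cut. All 3 genes encode proteins that bind GTP and act where membrane meets cytoskeleton. Dynamins are large GTPases that assemble into collars around membrane necks and cut them. In vertebrates dynamin 1 releases endocytic vesicles at the synapse, and the protein called dynamin-1-like divides mitochondria. The name in the study's list does not settle which of these is the closer relative, and the list places the gene under regulation of microtubules. Septins form filaments and rings beneath the membrane at the cleavage furrow. Cdc42 is a small GTPase that directs actin assembly and cell polarity, and the list gives it for progression through G1. In the Hippo pathway a kinase cascade restrains the transcriptional effector Yorkie. Planarian tissues are renewed from dividing stem cells called neoblasts, and these animals shrink when they starve.

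Each of the 3 assembly numbers had a single transcript in the table, so no value was divided between listed variants of the same number. The values are in TPM, a relative abundance corrected for transcript length, so levels of different genes can be set side by side. TPM keep no depth, and counting error is therefore unknown. *CDC42* had the highest mean over the 18 libraries, 229 TPM, and stood above 98.6% of all transcripts. *DYN1* averaged 83.9 TPM and *Sept4* 50.5 TPM, above 96.3% and 93.6% of transcripts. All 3 passed the filter of a mean of 1 TPM that left 28735 transcripts for testing. On the log2(TPM + 1) scale the spread within groups (residual SD) was 0.10 for *DYN1*, 0.05 for *Sept4* and 0.04 for *CDC42*, against a median of 0.07 over the 10677 transcripts that averaged 10 TPM or more. Differences were tested with limma in 1 fit of all 18 libraries, and calls were made at 0.05 on p-values adjusted over all tested transcripts by the Benjamini-Hochberg method. With 3 libraries against 3, an exact permutation test of a single gene cannot give a p below 0.1. In whole animals, more cells of a type and more RNA per cell cannot be told apart.

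*DYN1* was the member with the largest difference between treatments. In controls it stood at 56.9, 58.1 and 58.6 TPM at 1 week, at 51.1, 50.7 and 54.9 TPM at 3 weeks, and at 51.2, 49.3 and 53.8 TPM at 4 weeks. In *hippo (RNAi)* animals the 3 libraries gave 69.7, 90.0 and 91.7 TPM at 1 week, then 121, 127 and 130.0 TPM at 3 weeks, and 137, 129 and 130.5 TPM at 4 weeks. Every *hippo (RNAi)* library lay above every control library of its week. The group means were 83.8 ± 12.2 TPM (SD, n = 3 libraries) against 57.9 ± 0.84 TPM at 1 week, 126 ± 4.53 against 52.2 ± 2.27 TPM at 3 weeks, and 132 ± 4.17 against 51.4 ± 2.27 TPM at 4 weeks, ratios of 1.45, 2.41 and 2.57. The log2 fold changes were 0.52, 1.26 and 1.34 (standard error 0.08 each), and limma called all 3 (adjusted p = 0.00605, 3.26e-08 and 1.04e-08). Among the 28735 tested transcripts the change of *DYN1* ranked 888 from the highest at 1 week, 125 at 3 weeks and 134 at 4 weeks.

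**Figure D1:**
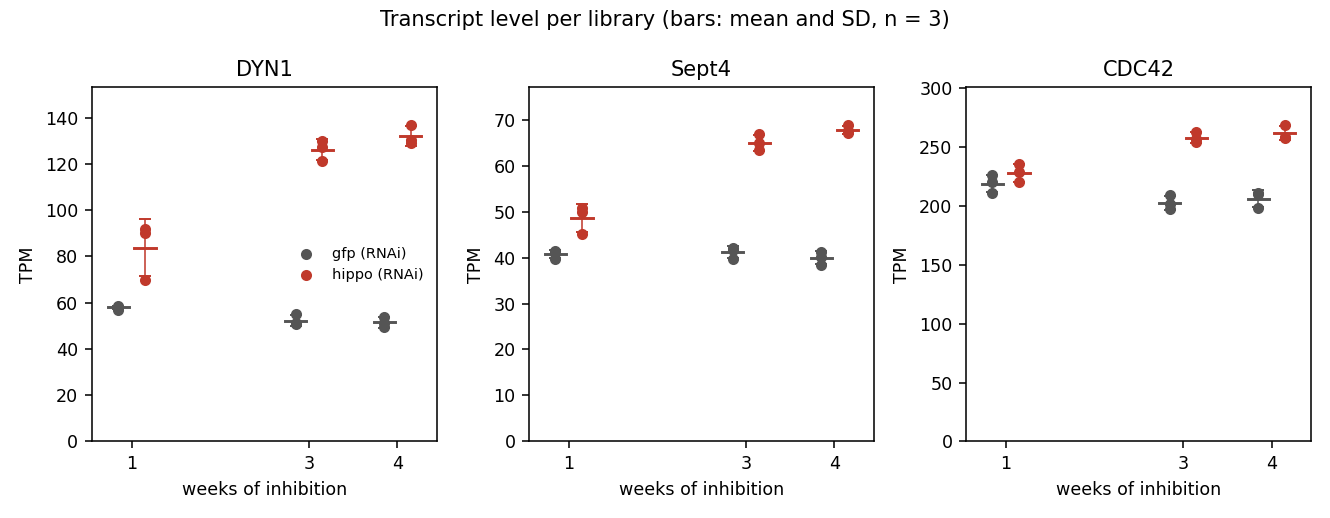
Level in TPM of *DYN1*, *Sept4* and *CDC42* (3 panels, vertical axes from 0) against weeks of inhibition, with 1 point per library, grey for *gfp (RNAi)* controls and red for *hippo (RNAi)* animals; bars give the mean and SD of 3 libraries. For *DYN1*, red points lie above grey points at each week, from 69.7 TPM in the lowest red library at 1 week to 137 TPM in the highest at 4 weeks. For *CDC42* the 2 colors overlap at 1 week.

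*Sept4* rose less and varied less between libraries. Its control libraries gave 39.7, 41.0 and 41.3 TPM at 1 week, 42.2, 41.6 and 39.8 TPM at 3 weeks, and 41.3, 40.1 and 38.5 TPM at 4 weeks. The *hippo (RNAi)* libraries gave 45.1, 49.9 and 50.8 TPM at 1 week, 66.8, 64.9 and 63.3 TPM at 3 weeks, and 68.8, 67.5 and 67.2 TPM at 4 weeks. Again no *hippo (RNAi)* library of a week reached down to its controls. Mean levels were 48.6 ± 3.08 against 40.7 ± 0.89 TPM (SD, n = 3 libraries) at 1 week, 65.0 ± 1.74 against 41.2 ± 1.26 TPM at 3 weeks, and 67.8 ± 0.87 against 39.9 ± 1.44 TPM at 4 weeks, which is 19.4%, 57.8% and 69.8% higher in *hippo (RNAi)* animals. On the log2 scale these were changes of 0.25, 0.65 and 0.75, with a standard error of 0.04, and all were called by limma (adjusted p = 0.0121, 5.44e-08 and 8.83e-09).

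*CDC42*, the most abundant of the 3, had the smallest relative change. Control libraries gave 211, 220.2 and 226 TPM at 1 week, 202, 209 and 198 TPM at 3 weeks, and 198, 211 and 209.9 TPM at 4 weeks. In *hippo (RNAi)* animals the values were 220.4, 229 and 236 TPM at 1 week, 263, 255 and 257 TPM at 3 weeks, and 269, 259 and 258 TPM at 4 weeks. The treatments overlapped at 1 week and were apart at 3 and 4 weeks. At 1 week the mean was 219 ± 7.62 TPM in controls and 228 ± 7.75 TPM under *hippo (RNAi)* (SD, n = 3 libraries), a log2 fold change of 0.06 that was not called (95% interval -0.02 to 0.13, adjusted p = 0.525 from limma). At 3 weeks it was 258 ± 4.54 against 203 ± 5.94 TPM, and at 4 weeks 262 ± 6.02 against 206 ± 7.15 TPM. Both later changes, 0.35 and 0.34 on the log2 scale with a standard error of 0.03, were called (adjusted p = 4.07e-06 and 3.15e-06 from limma). In absolute TPM the excess at 3 weeks was 55.3 for *CDC42*, more than the 23.8 of *Sept4* and less than the 73.9 of *DYN1*.

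The study chose these genes from these same libraries for differing between the treatments, so the differences between *hippo (RNAi)* animals and controls are no independent evidence of their direction. Across all tested transcripts 0.849% were called at 1 week, 15.5% at 3 weeks and 21.6% at 4 weeks, and those called higher in *hippo (RNAi)* animals were 0.654%, 10.2% and 13% of the total. All libraries of *hippo (RNAi)* animals lay above all their controls for 9.02%, 17.7% and 20.2% of transcripts. Against these shares, 2 of the 3 members were called at 1 week and all 3 at 3 and 4 weeks. The calls of *DYN1* and *Sept4* at 1 week depended on the fit. With the 6 libraries of that week alone the adjusted p was 0.262 for *DYN1* and 0.282 for *Sept4* from limma. *Sept4* was also not called at 1 week without control library 249 (adjusted p = 0.0673 from limma) or without *hippo (RNAi)* library 253 or 254 (0.0587 and 0.0710), and over all alternatives its adjusted p ran from 0.000613 to 0.282. *DYN1* kept its call without any library, and its adjusted p over all alternatives ran from 1.24e-05 to 0.262.

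**Figure D2:**
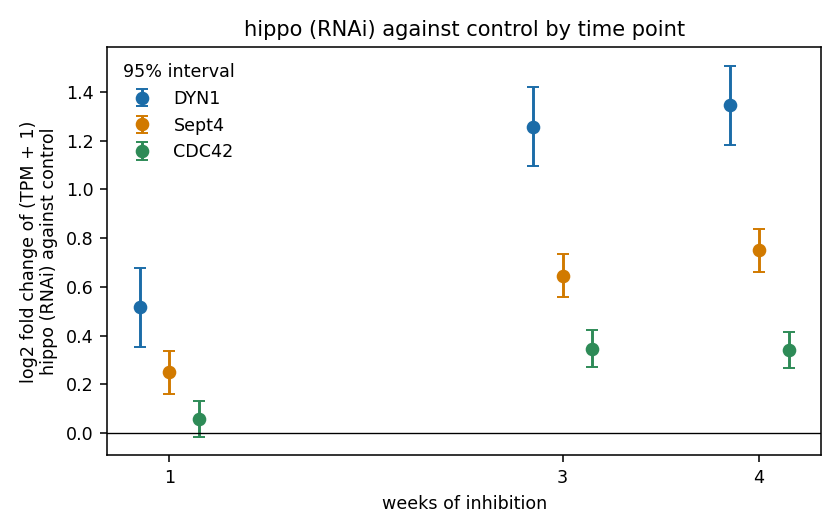
Log2 fold change of (TPM + 1) in *hippo (RNAi)* animals against controls on the vertical axis, at 1, 3 and 4 weeks of inhibition, with 95% intervals from the limma fit of all 18 libraries. The order *DYN1*, *Sept4*, *CDC42* holds at each week, and the interval of *CDC42* spans 0 at 1 week alone, from -0.02 to 0.13.

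The spread of *DYN1* was uneven. Its coefficient of variation was 14.6% among the *hippo (RNAi)* libraries at 1 week and between 1.45% and 4.41% in the other groups. The library numbered 252 was the low one at 1 week for all 3 genes, at 69.7 TPM for *DYN1* where the others were at 90.0 and 91.7 TPM. It had the lowest median over the 2928 transcripts called higher at 3 weeks, 0.05 on the log2 scale above the mean of the 1-week controls, against 0.09 and 0.11 in libraries 253 and 254. Over the 1513 transcripts called lower at 3 weeks, however, its median of -0.05 lay between the -0.04 of library 253 and the -0.07 of library 254. The part of this library in the result at 1 week was not tested beyond leaving it out, which raised the log2 fold change to 0.64 for *DYN1*, 0.30 for *Sept4* and 0.08 for *CDC42*. The fit assumes 1 spread for all groups, so the standard error of *DYN1* at 1 week is smaller than in a fit of that week alone (0.10). In limma the latter also draws on the spread of the other transcripts, so it is not that of the *DYN1* values by themselves.

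In starved controls none of the 3 genes was called between any pair of time points. *DYN1* had a mean of 57.9 TPM at 1 week, 52.2 TPM at 3 weeks and 51.4 TPM at 4 weeks, and all libraries of the later weeks lay below all those of 1 week. The log2 change from 1 to 4 weeks was -0.17 (95% interval -0.33 to -0.01, unadjusted p = 0.0422, adjusted p = 0.367 from limma), which is -11.2% in mean TPM. *CDC42* stood at 219, 203 and 206 TPM in turn. Its log2 change from 1 to 3 weeks was -0.11 (95% interval -0.18 to -0.04, unadjusted p = 0.00645, adjusted p = 0.241 from limma), with no overlap of libraries, and from 1 to 4 weeks -0.09 with libraries that overlapped (adjusted p = 0.302 from limma). *Sept4* had means of 40.7, 41.2 and 39.9 TPM, with overlapping libraries and log2 changes of 0.02 from 1 to 3 weeks and -0.03 from 1 to 4 weeks (adjusted p = 0.937 and 0.852 from limma). Between 3 and 4 weeks the log2 changes of the controls were -0.02 for *DYN1*, -0.04 for *Sept4* and 0.02 for *CDC42*. Their 95% intervals reached from -0.19 to 0.14 for *DYN1*, from -0.13 to 0.05 for *Sept4* and from -0.05 to 0.10 for *CDC42*.

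Few transcripts were called in controls at all, 0.143% from 1 to 3 weeks, 0.00696% from 3 to 4 weeks and 1.01% from 1 to 4 weeks. At an unadjusted p below 0.05, 1 of the 3 members passed from 1 to 3 weeks, 0 from 3 to 4 weeks and 2 from 1 to 4 weeks, where 10.6%, 5.19% and 12.8% of all tested transcripts did. All libraries lay lower at 3 weeks than at 1 week for 8.95% of transcripts, and lower at 4 weeks than at 1 week for 10.4%. The median change over all tested transcripts was -0.01 on the log2 scale from 1 to 3 and from 1 to 4 weeks. The study did not choose the genes on this comparison, as far as the sources say. Its control libraries, however, are also the base of the *hippo (RNAi)* comparison at each week. The genes were chosen for that difference between treatments, so the control course is not independent of the choice.

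**Figure D3:**
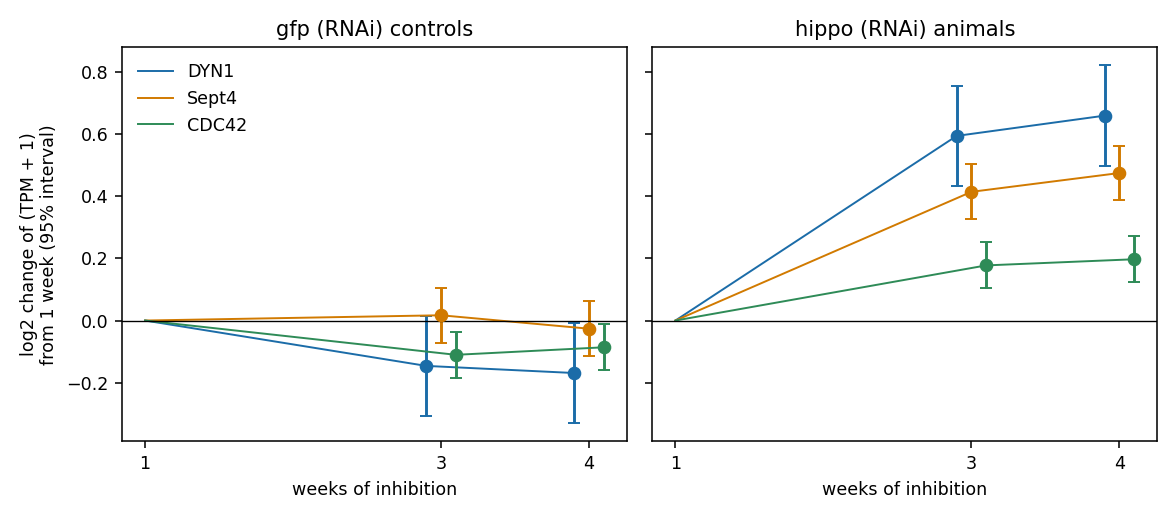
Log2 change of (TPM + 1) from the 1-week group of the same treatment, at 3 and 4 weeks, for *gfp (RNAi)* controls on the left and *hippo (RNAi)* animals on the right, with 95% intervals from limma. In controls the 3 genes lie between -0.17 and 0.02, and in *hippo (RNAi)* animals between 0.18 and 0.66.

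In *hippo (RNAi)* animals all 3 genes rose between 1 and 3 weeks, and no further change was called at 4 weeks. The log2 change from 1 to 3 weeks was 0.59 for *DYN1*, 0.41 for *Sept4* and 0.18 for *CDC42* (adjusted p = 0.000137, 1.95e-05 and 0.00421 from limma), against 8.07% of all transcripts called. The libraries of 3 weeks all lay above those of 1 week for each gene, as they did for 12% of transcripts. In mean TPM these were rises of 42.3, 16.4 and 29.9. From 3 to 4 weeks the means moved by a further 5.86, 2.82 and 3.59 TPM, and 0 of the 3 genes were called by limma (adjusted p = 0.881 for *DYN1*, 0.758 for *Sept4* and 0.929 for *CDC42*, 0 of them with an unadjusted p under 0.05). Of all transcripts 0.0209% were called there, and 8.12% had an unadjusted p under 0.05. The *Sept4* libraries of 4 weeks nevertheless all lay above those of 3 weeks, by 0.06 on the log2 scale (95% interval -0.03 to 0.15), which held for 7.33% of transcripts. The whole change from 1 to 4 weeks was 0.66 for *DYN1*, 0.47 for *Sept4* and 0.20 for *CDC42* (adjusted p = 3.33e-05, 3.28e-06 and 0.00130 from limma, 12.8% of transcripts called), again without overlap, which held for 14.8% of transcripts.

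The difference between treatments thus changed with time, and this was tested as an interaction. The genes were chosen for a difference between treatments in these libraries, and the interaction is not independent of that choice. From 1 to 4 weeks the *hippo* effect grew by 0.83 for *DYN1*, 0.50 for *Sept4* and 0.28 for *CDC42* on the log2 scale (standard errors 0.11, 0.06 and 0.05, adjusted p = 0.000176, 7.99e-05 and 0.00169 from limma). This was called for 9.72% of all transcripts. From 3 to 4 weeks the growth was 0.09, 0.10 and -0.0044 for the same genes, and 0 of the 3 were called by limma (adjusted p = 0.931, 0.812 and 0.996, 0 with an unadjusted p under 0.05). The 95% intervals of these differences were -0.14 to 0.32 for *DYN1*, -0.02 to 0.23 for *Sept4* and -0.11 to 0.10 for *CDC42*. Over all transcripts 0.0104% were called there, and 6.67% had an unadjusted p under 0.05. For *DYN1* and *CDC42*, the change in controls took part in the interaction. From 1 to 3 weeks (5.11% of transcripts called) the effect of *CDC42* grew by 0.29. Of this, 0.18 was the rise in *hippo (RNAi)* animals and the rest came from controls, whose change was -0.11 and not called. Of the 0.74 of *DYN1*, 0.59 was the rise in *hippo (RNAi)* animals, and its controls changed by -0.15, also not called. The controls of *Sept4* changed by 0.02 over these weeks.

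The order of the 6 group means differed between the genes. For *DYN1* it ran from *hippo (RNAi)* at 4, 3 and 1 weeks down to controls at 1, 3 and 4 weeks, and only the pair of 4 and 3 weeks within each treatment overlapped. For *Sept4* the *hippo (RNAi)* groups stood in the same order without overlap, above control groups that all overlapped. For *CDC42*, the 4- and 3-week *hippo (RNAi)* groups overlapped each other and stood apart from the rest, while *hippo (RNAi)* at 1 week overlapped the 1-week controls and these overlapped the 4-week controls.

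Because the genes changed by different amounts, their proportions within a library shifted. In controls there were between 3.60 and 4.29 *CDC42* transcripts for each *DYN1* transcript, in TPM. In *hippo (RNAi)* animals this ratio was 3.16, 2.54 and 2.57 in the libraries of 1 week, between 1.97 and 2.17 at 3 weeks, and between 1.97 and 2.01 at 4 weeks. The mean at 4 weeks was 1.98 ± 0.02 (SD, n = 3 libraries). The ratio of *DYN1* to *Sept4* moved the other way, from 1.21 to 1.44 over the control libraries to between 1.55 and 2.05 over the *hippo (RNAi)* libraries. Within the controls, libraries 259 and 263 stood apart from the others of their weeks, with ratios of *DYN1* to *Sept4* of 1.38 and 1.40 against 1.21 to 1.24. Both had the highest *DYN1* and the lowest *Sept4* of their groups. These ratios are a description and rest on the same libraries as the comparisons above.

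**Figure D4:**
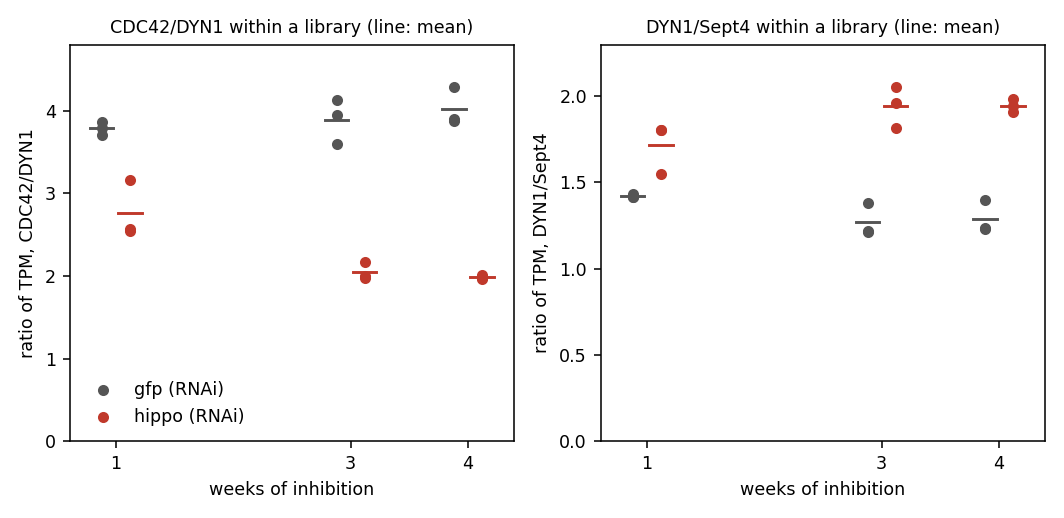
Ratio of TPM within a library on the vertical axis (from 0), *CDC42* to *DYN1* on the left and *DYN1* to *Sept4* on the right, against weeks of inhibition, with 1 point per library, grey for *gfp (RNAi)* and red for *hippo (RNAi)*, and a line at the mean of 3. Grey and red points do not overlap at any week in either panel, and on the left the red means go from 2.76 at 1 week to 1.98 at 4 weeks.

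The remaining 17 genes of the study's list were used for comparison, each by its most abundant transcript. All of them were tested, and the study chose them from these libraries too. Under *hippo (RNAi)*, 6 of them were called higher than controls and 5 lower at 3 weeks, at 4 weeks 7 higher and 4 lower, and at 1 week 3 higher and 1 lower. Of all tested transcripts 10.2%, 13% and 0.654% were called higher at 3, 4 and 1 weeks. Calls in either direction made up 15.5%, 21.6% and 0.849%. The median log2 fold change of the 17 genes was 0.00 at 1 week, -0.06 at 3 weeks and -0.12 at 4 weeks, beside a median over all tested transcripts of 0.02, 0.00 and 0.00. *DYN1*, *Sept4* and *CDC42* therefore belong to the part of the list that was higher. *centriolin*, the other gene given for completion of cytokinesis, which acts at the midbody, was not called at any week by limma on log2(TPM + 1). The paper, which used sleuth and DESeq2, describes *centriolin* as down-regulated under *hippo (RNAi)*, so the tests are unlike. The means of *centriolin* were 7.996 ± 0.10 against 9.47 ± 0.30 TPM (SD, n = 3 libraries) at 1 week, 8.08 ± 0.59 against 9.26 ± 0.30 TPM at 3 weeks and 9.08 ± 1.26 against 9.33 ± 0.35 TPM at 4 weeks. On the log2 scale that was -0.22, -0.18 and -0.04 in turn (limma, adjusted p = 0.228, 0.144 and 0.768). Its *hippo (RNAi)* libraries all lay below controls at 1 week (highest 8.11 TPM against a lowest control of 9.14 TPM) and at 3 weeks (8.49 against 9.03 TPM), as held for 5.88% and 14% of transcripts, and overlapped them at 4 weeks. In controls 0 of the 17 genes were called by limma from 1 to 3 weeks (4 at an unadjusted p below 0.05), 0 from 3 to 4 weeks (2) and 1 from 1 to 4 weeks (5). Of all tested transcripts 0.143%, 0.00696% and 1.01% were called in turn, and 10.6%, 5.19% and 12.8% passed that unadjusted p. The gene called from 1 to 4 weeks was *lysosomal acid lipase*, an enzyme that breaks down lipids in lysosomes. It rose by 0.42 on the log2 scale (adjusted p = 0.0326 from limma) where *DYN1* and *CDC42* were at -0.17 and -0.09.

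**Figure D5:**
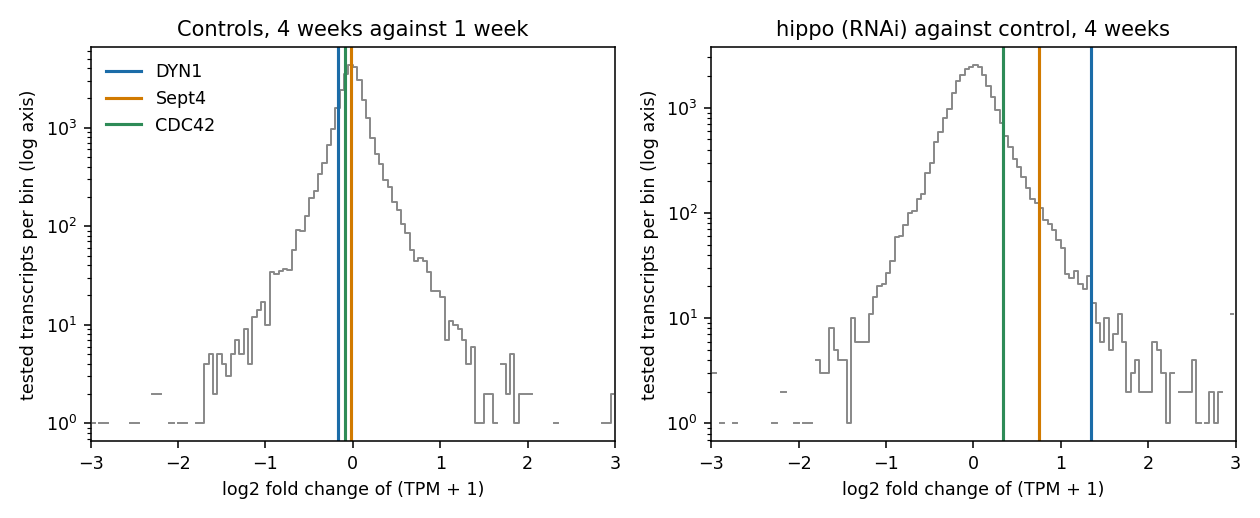
Number of tested transcripts per bin of 0.05 in log2 fold change (log vertical axis, values beyond the ends pooled in the last bins, empty bins left blank), for controls at 4 weeks against 1 week on the left and for *hippo (RNAi)* against control at 4 weeks on the right. Colored lines mark *DYN1* at -0.17 and 1.34, *Sept4* at -0.03 and 0.75, and *CDC42* at -0.09 and 0.34.

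The likeness of other transcripts to each member was measured as the Pearson correlation of log2(TPM + 1) over the 18 libraries. It is given as a description, since the libraries fall into treatment groups and share their scaling. The members resembled each other, with r = 0.98 for *DYN1* and *Sept4*, 0.96 for *DYN1* and *CDC42*, and 0.95 for *Sept4* and *CDC42*. Many other transcripts were closer. In likeness to *DYN1*, *Sept4* ranked 133 and *CDC42* 444, and in likeness to *Sept4*, *CDC42* ranked 594. The genes were chosen for a difference between treatments, so these correlations are not independent of that choice. Of the 28734 other transcripts compared with each member, 1248 reached r = 0.9 for *DYN1*, 1267 for *Sept4* and 1161 for *CDC42*. The closest to *DYN1* was dd_Smed_v6_768_0_1 (r = 0.998), with mean TPM of 113, 104 and 104 in controls and 156, 225 and 238 in *hippo (RNAi)* animals at 1, 3 and 4 weeks. The next were dd_Smed_v6_2645_0_1 and dd_Smed_v6_10942_0_1 (r = 0.996 each). For *Sept4* they were dd_Smed_v6_4332_0_1, dd_Smed_v6_1613_0_1 and dd_Smed_v6_727_0_1 (r = 0.99 each), and for *CDC42* dd_Smed_v6_662_0_1, dd_Smed_v6_684_0_3 and dd_Smed_v6_610_0_1 (r = 0.99, 0.99 and 0.98). The sources used here give no gene names for these. Within the study's list, the most similar to *DYN1* and to *CDC42* was *progranulin*, a secreted growth factor (r = 0.99 and 0.98), and the most similar to *Sept4* was *insulin-like growth factor* (r = 0.99). *lysosomal acid lipase* ran opposite to each (r between -0.97 and -0.95).

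Within groups, how far the genes moved together depended on single libraries. The deviations from the group means correlated at r = 0.48 for *DYN1* and *Sept4*, 0.35 for *DYN1* and *CDC42*, and 0.48 for *Sept4* and *CDC42* over 18 libraries. Each library was then left out in turn, an alternative chosen after the values were seen. Without library 252 these were -0.50, -0.06 and 0.29, and without library 261 the value of *Sept4* and *CDC42* was 0.78. Without library 254 that of *DYN1* and *CDC42* was 0.19. The deviation of *DYN1* had the sign of that of *Sept4* in 9 of 18 libraries, and that of *Sept4* had the sign of *CDC42* in 15.

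Over the whole series, the rank correlation (Spearman) of all transcripts ran from 0.940 to 0.963 between libraries of the same group. The level of *hippo* itself is not reported, since no source used here pairs it with a transcript, so the labels could not be checked on the silenced gene. For the same reason no markers of cell types or of the whole-animal source were matched. Of the *hippo (RNAi)* libraries at 3 and 4 weeks, 4 are numbered 266 to 269, apart from the run of numbers of the controls of those weeks, and the labels do not say why. The remaining library was 260 at 3 weeks, inside that run, and 264 at 4 weeks, the next number after its end. These had 130.0 and 129 TPM of *DYN1*, 63.3 and 67.5 TPM of *Sept4*, and 257 and 259 TPM of *CDC42*, all above their controls. Without the 4 libraries each of these weeks has 1 *hippo (RNAi)* library, which the fit assumes to vary like the other groups, so the calls against controls, which were all made, have no replicate check of their own. In the same fit *CDC42* lost its call within *hippo (RNAi)* animals from 1 to 3 weeks (adjusted p = 0.149 from limma) and from 1 to 4 weeks (0.102), and the growth of its effect from 1 to 3 weeks lost its call as well (0.0584). Over all alternatives these adjusted p ran from 0.00185 to 0.149, from 0.000607 to 0.102 and from 0.00120 to 0.0584.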

How the data were processed

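RNA of 18 libraries was extracted with TRIzol and made into stranded poly(A) libraries that were sequenced as paired ends. The authors ran kallisto 0.43.0 against the dd_Smed_v6 assembly and deposited TPM, whose sum does not differ between libraries, so each value also depends on the other transcripts. Read numbers and trimming were not stated. For their own tests the authors used sleuth and DESeq2, which need counts. Here limma 3.58.1 in R 4.3.3 was run on log2(TPM + 1), with a variance trend and 1 mean per group, for 28735 transcripts that averaged 1 TPM or more. Such fold changes understate the change of low transcripts. Groups came from the treatment labels, and all 18 columns were matched by library number. Nothing says that the pools came from separate cultures, so p-values measure the spread between pools. The code was tested on simulated data. Named were the 3 members, the other genes of the study's list, and the 3 tested transcripts most correlated with each member. The members and lists were chosen with earlier results of these data known. The alternatives were another pseudocount, no filter or one of 10 TPM, the compared groups alone, median-ratio scaling, TPM summed per assembly number, array weights, and libraries left out. Figures were drawn with matplotlib 3.10.9.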

Additional observations from a re-analysis of the deposited data

Results flagged for a closer look

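In 6 cases a test of the difference itself found that the contrast of *hippo (RNAi)* animals with controls was not the same at both time points. Between 3 weeks and 1 week the log2 fold change against controls differed by 0.74 for *DYN1*, 0.40 for *Sept4* and 0.29 for *CDC42* (adjusted p = 0.000870, 0.000971 and 0.00265 from limma). Between 4 weeks and 1 week it differed by 0.83, 0.50 and 0.28 (adjusted p = 0.000176, 7.99e-05 and 0.00169 from limma). In each case all 3 *hippo (RNAi)* libraries of the later week lay above all those of 1 week. This held for 12% of all tested transcripts at 3 weeks and 14.8% at 4 weeks. It describes the *hippo (RNAi)* animals alone, while the tested difference also includes the change in controls. Over all tested transcripts 5.11% were called in the test of 3 weeks and 9.72% in that of 4 weeks. The genes were chosen from these libraries for differing between the treatments, so these tests are not independent of that choice. Groups of 3 libraries are too small for a check of single outlying libraries.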

How the results depend on the processing

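For 26 of the 36 values, the direction and the side of the threshold held under every alternative. All calls of the 3 genes against controls at 3 and 4 weeks were among them, with log2 fold changes between 1.23 and 1.38 for *DYN1* when libraries were left out in turn. With the compared groups alone, *DYN1* (0.52) and *Sept4* (0.25) were not called at 1 week. Without 1 library in turn, *Sept4* at 1 week ranged from 0.22 to 0.30. Values near 0 changed sign in the controls: *DYN1* from 3 to 4 weeks ranged from -0.055 to 0.012, *Sept4* from 1 to 3 weeks from -0.00064 to 0.041 and *Sept4* from 1 to 4 weeks from -0.050 to 0.00015. The growth of the *CDC42* effect from 3 to 4 weeks ranged from -0.033 to 0.015. Without the 4 *hippo (RNAi)* libraries numbered 266 to 269, which leaves 1 at each of 3 and 4 weeks, *DYN1* in *hippo (RNAi)* animals was at -0.014 from 3 to 4 weeks, and *CDC42* was not called in *hippo (RNAi)* animals from 1 to 3 weeks (0.17) or from 1 to 4 weeks (0.18), nor in the growth of its effect from 1 to 3 weeks (0.28). In that fit the *hippo (RNAi)* groups of 3 and 4 weeks have no spread of their own. The cause was not tested beyond the smaller number of libraries. No paired analysis was possible because the labels carry no replicate numbers. The number of transcripts called moved by over 1.5 times at 1 week, from 244 to 403 without library 252, 81 without 253, 55 without 254 and 75 without control library 249, and to 29 with that week alone or 381 with the filter of 10 TPM. At 3 and 4 weeks it fell from 4441 to 2275 and from 6195 to 3076 without libraries 266 to 269. In controls it ranged from 0 to 162 (41) from 1 to 3 weeks, from 0 to 9 (2) from 3 to 4 weeks and from 7 to 556 (291) from 1 to 4 weeks. In *hippo (RNAi)* animals it ranged from 880 to 2497 (2320), from 1 to 25 (6) and from 1192 to 3907 (3686) for the same steps. For the growth of the effect it ranged from 672 to 1784 (1468), from 0 to 8 (3) and from 1219 to 2979 (2794).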
